A study of Mus musculus with 24 samples.

Results

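The comparison described here is the change in translational efficiency (TE) of each transcript when p53 is lost from limb buds in which Prx1Cre removes 1 copy of Rps6. TE is the level of ribosome footprints on a transcript relative to the level of its RNA, so a change in TE is the footprint change less the RNA change on the log2 scale. The tissue was mouse forelimb at embryonic stage E10.5. The group without p53 has the genotype Prx1Cre;Rps6lox/+;Trp53-/- (Rps6 het, Trp53 null), and the group with p53 has Prx1Cre;Rps6lox/+;Trp53+/+ (Rps6 het, Trp53 WT). Both groups carry the floxed Rps6 allele and the Prx1Cre transgene, so they differ in Trp53. The libraries were chosen by these genotypes in the labels. Each group holds 3 pools of limbs from 2 embryos each, and each pool gave 1 library of ribosome-protected fragments (RPF) and 1 of total RNA. This makes 12 of the 24 libraries of the series. The other 12 libraries are from limbs without Cre, Rps6lox/+;Trp53+/+ (Rps6 WT, Trp53 WT) and Rps6lox/+;Trp53-/- (Rps6 WT, Trp53 null), and they are used to ask whether an effect of Trp53 depends on the Rps6 genotype. They lack Prx1Cre as well as the Rps6 deletion, so for any difference between Rps6 het and Rps6 WT limbs the deletion and the presence of Cre cannot be told apart.

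The product of Rps6 is part of the small subunit of the ribosome. Cells with too little of a ribosomal protein assemble fewer ribosomes, and free ribosomal proteins that accumulate can bind and inhibit Mdm2, the ubiquitin ligase that keeps p53 low. The p53 protein is a transcription factor that induces genes of cell cycle arrest, repair and death, and some of its targets act on the machinery of translation. Prx1Cre expresses the recombinase in limb bud mesenchyme, so ectoderm, vessels and blood in the same sample are expected to keep both Rps6 alleles, while the Trp53 genotype holds for the whole embryo. In such bulk samples a smaller number of cells of one type and less RNA per cell cannot be told apart.

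Transcripts are listed by versioned Ensembl transcript ID. Of 21960 IDs, 0 matched the tables of gene names used here. Transcripts are therefore described by ID and by the behaviour of their RNA and footprints, the levels of Rps6, Trp53 and cell type markers were not analysed here, and no sequences are shown. The 6 RNA libraries of Rps6 het limbs held 18610294 to 29104669 counts and the 6 RPF libraries 7026056 to 13143323. The deepest RNA library was replicate 3 of Rps6 het, Trp53 null and the shallowest RPF library was replicate 2 of Rps6 het, Trp53 WT. Replicates of one group differed by more than sampling noise in all 12 pairs, with a chi-square statistic of 1.92 to 17.1 per degree of freedom. It was 1.92 to 2.90 in pairs of RPF libraries and 3.10 to 17.1 in pairs of the deeper RNA libraries. The largest values, 12.2 and 17.1, were of RNA pairs with replicate 3 of Rps6 het, Trp53 null. RPF and RNA libraries of one pool deviated together from their group means, with correlations across transcripts of 0.146 to 0.387 over the 6 Rps6 het pools.

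On loss of Trp53, TE was called higher far more often than lower. Of 14080 transcripts tested, 77 had a changed TE at an adjusted p-value under 0.05 (edgeR's quasi-likelihood test with the pool as a block and Benjamini-Hochberg adjustment), which is 0.547% of those tested. TE was higher in Trp53 null for 72 of them (0.511% of those tested) and lower for 5 (0.0355%). The median change was 0.39 on the log2 scale for the 72 transcripts with higher TE, with a range of 0.21 to 1.25, and −0.26 for the 5 with lower TE, with a range of −0.88 to −0.23. In size, 2 of the 77 changes exceeded 1 on the log2 scale and 22 exceeded 0.5. TE values of the 3 null pools all lay above those of the 3 WT pools for 71 of the 72, beside 7.87% of all tested transcripts, and all below for the 5 with lower TE, beside 5.43%. These pools chose the transcripts, so the separation is a description. Over all tested transcripts the median TE change was 0.01. RPF and RNA libraries were each scaled so that most transcripts match between libraries, which largely sets this median near 0. Each TE change is therefore relative to the other transcripts, and a shift shared by all of them could not be seen.

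The number of calls rested on single pools. Without replicate 3 of Rps6 het, Trp53 WT, 34 transcripts were called, and all 34 were among the 77. Without replicate 3 of Rps6 het, Trp53 null, 51 were called, 43 higher and 8 lower, and 42 of these were among the 77. Taking the libraries of a pool as independent left 23 calls, 22 of them higher.

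Changes in RNA and in footprints were more numerous and more even in direction than those in TE. The RNA test found a change for 1919 of 14411 transcripts (13.3%), of which 895 had more RNA in Trp53 null (6.21%) and 1024 less (7.11%). The count was 1151 without replicate 1 of Rps6 het, Trp53 WT and 1224 in a fit of the Rps6 het pools alone. The RPF test found a change for 1831 of 12147 (15.1%), with 843 up (6.94%) and 988 down (8.13%). With libraries scaled by their totals alone, the splits became 1078 higher and 804 lower in RNA, and 1341 higher and 643 lower in RPF.

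**Figure D1:**
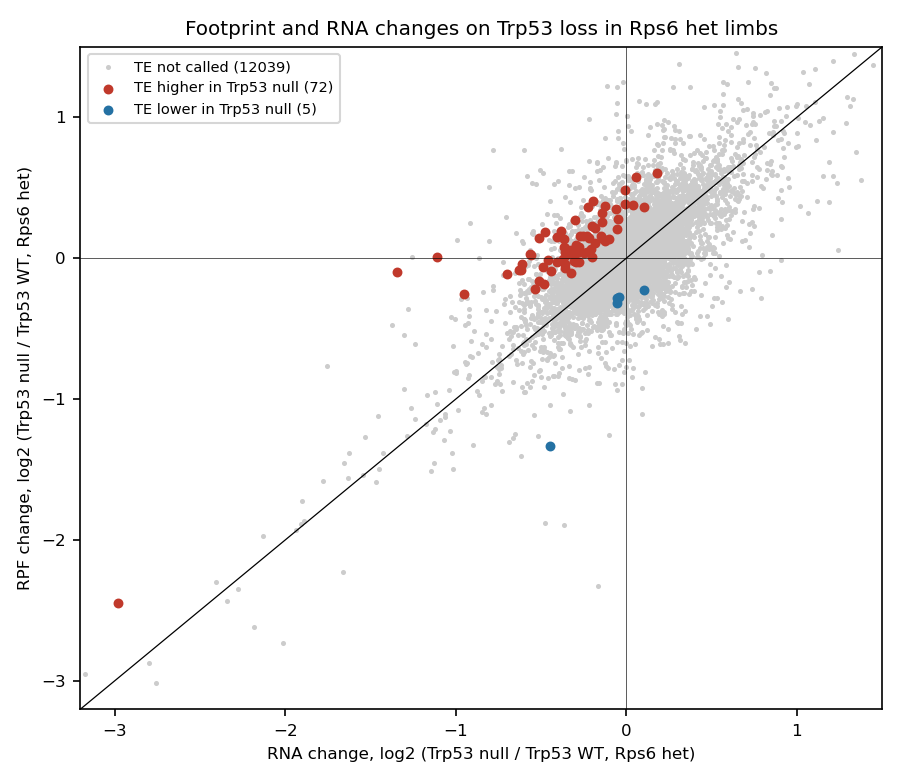
Change in RPF (vertical axis) against change in RNA (horizontal axis) for each transcript, both as log2 of Trp53 null over Trp53 WT in Rps6 het limbs. Grey points are transcripts with no called TE change, red points the 72 with higher TE and blue points the 5 with lower TE. The diagonal marks equal changes, and 27 grey points lie outside the axes. Most red points lie left of 0 in RNA and near 0 in RPF.

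The transcripts with higher TE were mostly ones whose RNA was lower in Trp53 null while their footprints were not. Of the 72, 68 had a negative RNA change, and 46 were called lower in RNA and 0 higher by edgeR. Without replicate 3 of Rps6 het, Trp53 WT, 32 transcripts had higher TE and 22 of these were called lower in RNA. In the background of all RNA tests, 7.11% were called lower. Of the 12116 transcripts tested in all 3 fits, which include the 72, 966 were called lower in RNA. Neither background was matched to the 72 in depth. The 72 had a median RNA change of −0.30 and a median RPF change of 0.06. TE subtracts RNA, so an error in a transcript's RNA level moves its RNA change and its TE change in opposite directions.

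Sorted by the separate RPF and RNA tests, 40 of the 72 were lower in RNA and not called in RPF. In this class the RNA change had a median of −0.36 and reached −1.34, while the RPF change stayed between −0.16 and 0.19, with a median of 0.02. The classes were sorted by these same tests, so the RNA and RPF changes within a class are a description. A further 4 were lower in both, with a median RNA change of −0.74 against a median RPF change of −0.24. Their range was wide, from −2.98 to −0.48 in RNA and from −2.45 to −0.18 in RPF. The lowest value of both belonged to ENSMUST00000108658.9. Whether the 72 include Trp53 itself was not checked. Another 2 were lower in RNA and higher in RPF. Leaving out replicate 3 of Rps6 het, Trp53 WT in all 3 fits left 32 with higher TE. The class with lower RNA and no RPF call then held 21, its lowest value over the 6 pools left out in turn. Without replicate 3 of Rps6 het, Trp53 null it held 29 of 43.

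The second class rose in footprints with no RNA call. It held 18 transcripts, with a median RPF change of 0.36 (range 0.13 to 0.60) and a median RNA change of −0.08 (range −0.47 to 0.18). In the background of all RPF tests, 6.94% were called higher. An error in a transcript's RPF level moves its RPF change and its TE change in the same direction. Whether this class holds mitochondrially encoded transcripts was not checked. This class depended more on single pools. It held 5 of the 43 transcripts with higher TE without replicate 3 of Rps6 het, Trp53 null, and 32 of 101 without replicate 2. Without replicate 3 of Rps6 het, Trp53 WT it held 8 of 32, and without replicate 1 it held 9 of 51. The last 8 of the 72 were called in neither RNA nor RPF, with a median RNA change of −0.28 and a median RPF change of 0.14.

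All 5 transcripts with lower TE were called lower in footprints, beside 8.13% called lower over all RPF tests. RNA was not called for 4 of them, which had RPF changes of −0.32 to −0.23 and RNA changes of −0.05 to 0.11. The fifth was lower in both, and more so in RPF. TE contains RPF, so an error in a transcript's RPF level moves its RPF change and its TE change in the same direction.

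The same TE calls can be counted against all RNA calls, which share the RNA libraries with TE and so add no separate support. Of the 966 transcripts that were lower in RNA and tested in all 3 fits, TE was called higher for 46 (4.76%) and lower for 1, beside 0.594% higher over all 12116 transcripts tested in all 3 fits. Of the 853 that were higher in RNA, TE was called for 0 in either direction by edgeR. The median RPF change was −0.22 where the median RNA change was −0.30, and 0.28 where it was 0.32. Of the 966 transcripts with lower RNA, 514 were also called lower in RPF, beside 986 of all 12116. Of the 853 with higher RNA, 410 were also called higher in RPF, beside 842 of all 12116. From the side of footprints, which also enter TE, TE was called higher for 20 of the 842 transcripts with higher RPF (2.38%). It was called lower for 5 of the 986 with lower RPF (0.507%). Over all 12116 these shares were 0.594% higher and 0.0413% lower. Whether the 2 directions differ was not tested.

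Levels in each pool show which genotype stood apart. For each transcript, log2 levels were set relative to the mean of the 3 pools of Rps6 WT, Trp53 WT, and the median over a class was taken in each pool. For the 40 transcripts with lower RNA and no RPF call, the RNA median was 0.32 to 0.38 in the 3 Rps6 het, Trp53 WT pools. In the 3 Rps6 het, Trp53 null pools it was −0.08 to 0.04, and in Rps6 WT, Trp53 null −0.05 to 0.04. The RPF median of the same transcripts lay between −0.07 and 0.03 in all 12 pools. Their TE median was −0.44 to −0.33 in Rps6 het, Trp53 WT and −0.08 to 0.06 in Rps6 het, Trp53 null. Thus the pools of Rps6 het, Trp53 WT were high in RNA and low in TE, and the Rps6 het, Trp53 null pools overlapped those of both Rps6 WT genotypes. The groups within Rps6 het were used to choose these transcripts. Their separation in RNA and TE and their small difference in RPF are therefore a description.

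In the 18 transcripts with higher RPF and no RNA call, the RPF median was −0.22 to −0.17 in Rps6 het, Trp53 WT and 0.06 to 0.12 in Rps6 het, Trp53 null. Their RNA medians overlapped, at 0.09 to 0.21 and −0.09 to 0.26. Their TE median spread widely among the Trp53 null pools, from −0.14 to 0.23, against −0.43 to −0.37 in Rps6 het, Trp53 WT. For the 4 transcripts with lower TE and no RNA call, the RPF median was 0.02 to 0.15 with p53 and −0.18 to −0.12 without it. Both Rps6 WT genotypes lay between −0.02 and 0.05. For these 4 transcripts the RPF medians of the Rps6 het, Trp53 null pools were below every pool of the other genotypes. The Rps6 het pools were used to choose both classes, so their separation is a description.

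**Figure D2:**
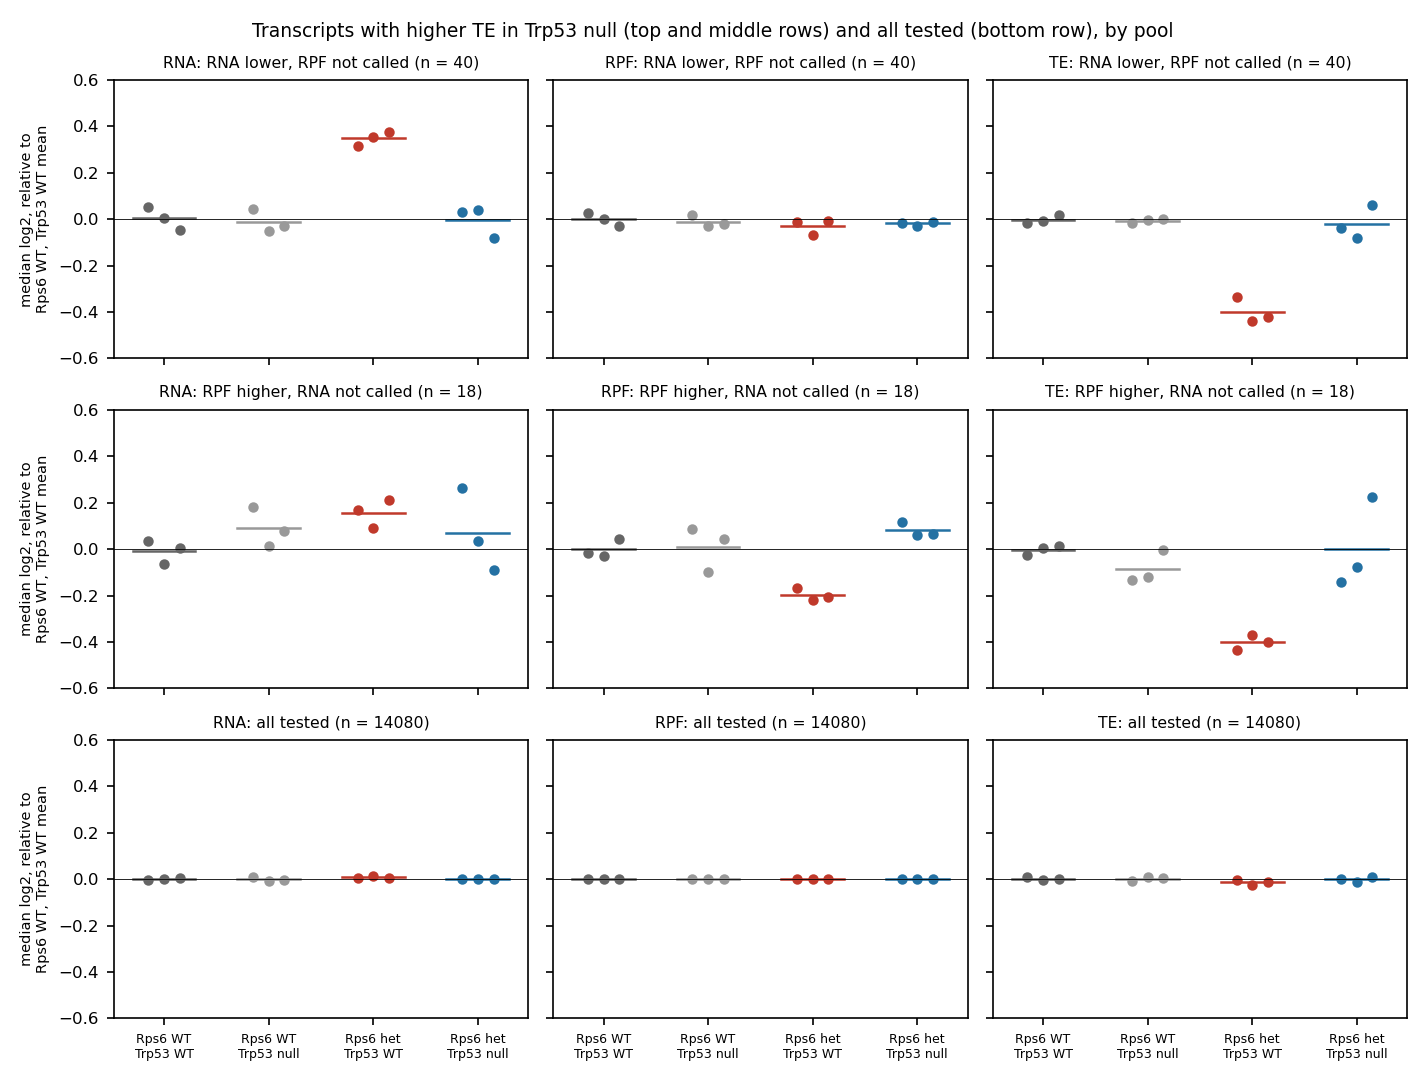
Median log2 level over a class of transcripts in each of the 12 pools, relative to the mean of the Rps6 WT, Trp53 WT pools, for RNA, RPF and TE (columns). Points are pools in the order of replicates 1 to 3 and lines are means of 3 pools. In the top row the RNA medians of Rps6 het, Trp53 WT are 0.32 to 0.38 and those of the other genotypes lie near 0. The bottom row shows the medians over all 14080 tested transcripts, which the scaling of the libraries largely sets near 0 in every pool.

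Replicate 3 of Rps6 het, Trp53 null stood at one end of its group for most of these transcripts. It had the highest TE of the 3 pools for 58 of the 72 transcripts with higher TE and the lowest RNA level for 57 of them. The highest footprint level was found in this pool for 24 and the lowest for 25. In Rps6 het, Trp53 WT the pool with the most extreme footprints was replicate 2, the shallowest RPF library, which had the lowest RPF level for 57 of the 72. The part of this pool difference or of depth in the calls was not tested beyond the refits without each pool. The median SD of TE between pools of a genotype, over all tested transcripts, was 0.14 for Rps6 het, Trp53 null, 0.13 for Rps6 het, Trp53 WT, and 0.11 and 0.12 for Rps6 WT, Trp53 WT and Rps6 WT, Trp53 null, on the log2 scale.

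The transcripts named are the first 2 in each direction when ordered by p-value. ENSMUST00000102926.4 had the largest TE change of all called transcripts. Its RNA level was 177, 163 and 194 CPM (counts scaled to a common library size) in replicates 1 to 3 of Rps6 het, Trp53 WT and 73.5, 80.3 and 57.6 CPM in Rps6 het, Trp53 null. Its RPF level was 463, 462 and 482 CPM with p53 and 446, 422 and 448 CPM without. RNA was higher in every pool with p53 and the groups were far apart. Footprints were also higher in every pool with p53, but differed little. The ratio of RPF to RNA CPM was 2.64 ± 0.177 (SD, n = 3) in Rps6 het, Trp53 WT and 6.37 ± 1.29 in Rps6 het, Trp53 null. The TE change was 1.25 ± 0.09 (SE) on the log2 scale, with an edgeR adjusted p = 2.78e-09. RNA fell by 1.34 ± 0.09 (SE, edgeR adjusted p = 9.06e-08), and the RPF change of −0.10 ± 0.04 (SE) was not called (edgeR adjusted p = 0.0825). In Rps6 WT limbs its ratio was 7.27 ± 0.278 with p53 and 5.97 ± 0.605 (SD, n = 3) without, so that Rps6 het, Trp53 WT was the one genotype with a low ratio.

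ENSMUST00000027438.7 is an abundant transcript whose RNA and footprints were both lower without p53, RNA by more. RNA was at 1125, 1161 and 1209 CPM in the 3 Rps6 het, Trp53 WT pools and at 612, 656 and 540.2 CPM in the Rps6 het, Trp53 null pools. RPF was at 3154, 2877 and 3057 CPM with p53 and at 2463, 2683 and 2487 CPM without. Neither measure overlapped between the groups. RNA fell by 0.95 ± 0.06 (SE, edgeR adjusted p = 4.32e-08) and RPF by 0.25 ± 0.04 (SE, edgeR adjusted p = 4.08e-05). TE rose by 0.70 ± 0.05 (SE) with an edgeR adjusted p = 9.28e-09. In both Rps6 WT genotypes the ratio of RPF to RNA CPM was 4.28 ± 0.15 and 4.29 ± 0.0438 (SD, n = 3) with and without p53, near the 4.24 ± 0.317 of Rps6 het, Trp53 null and above the 2.6 ± 0.175 of Rps6 het, Trp53 WT.

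ENSMUST00000029727.7 had the largest fall in TE among the 5 transcripts called lower. It is a scarce transcript, with 53 to 195 RPF counts and 268 to 452 RNA counts in the Rps6 het libraries. Its RPF level was 12.6, 13.4 and 15.1 CPM in Rps6 het, Trp53 WT and 5.61, 5.93 and 4.93 CPM in Rps6 het, Trp53 null. Its RNA level was 19.3, 19.3 and 20.4 CPM with p53 and 13.4, 14.5 and 15.3 CPM without. Both were lower in every pool without p53, and footprints by more. RPF fell by 1.34 ± 0.15 (SE, edgeR adjusted p = 2.78e-07), RNA by 0.45 ± 0.08 (SE, edgeR adjusted p = 0.00156) and TE by 0.88 ± 0.15 (SE, edgeR adjusted p = 0.00201). In Rps6 WT limbs its RPF level was 5.81 ± 1.49 CPM with p53 and 6.04 ± 0.663 CPM (SD, n = 3) without.

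ENSMUST00000086519.11 showed a small fall of an abundant transcript. RPF was at 1376, 1369 and 1283 CPM with p53 and at 1092, 1089 and 1154 CPM without, while RNA was at 2740.1, 2740.03 and 2582 CPM with p53 and at 2629, 2593 and 2602 CPM without. Footprints did not overlap between the groups and RNA did. The TE change was −0.23 ± 0.05 (SE) with an edgeR adjusted p = 0.0157. The RPF change of −0.27 ± 0.04 (SE) was called (edgeR adjusted p = 1.18e-05) and the RNA change of −0.04 ± 0.05 (SE) was not (edgeR adjusted p = 0.631). The TE call was lost without replicate 1 (edgeR adjusted p = 0.0584) or replicate 3 (0.0639) of Rps6 het, Trp53 WT, and without replicate 1 of Rps6 het, Trp53 null (0.057).

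**Figure D3:**
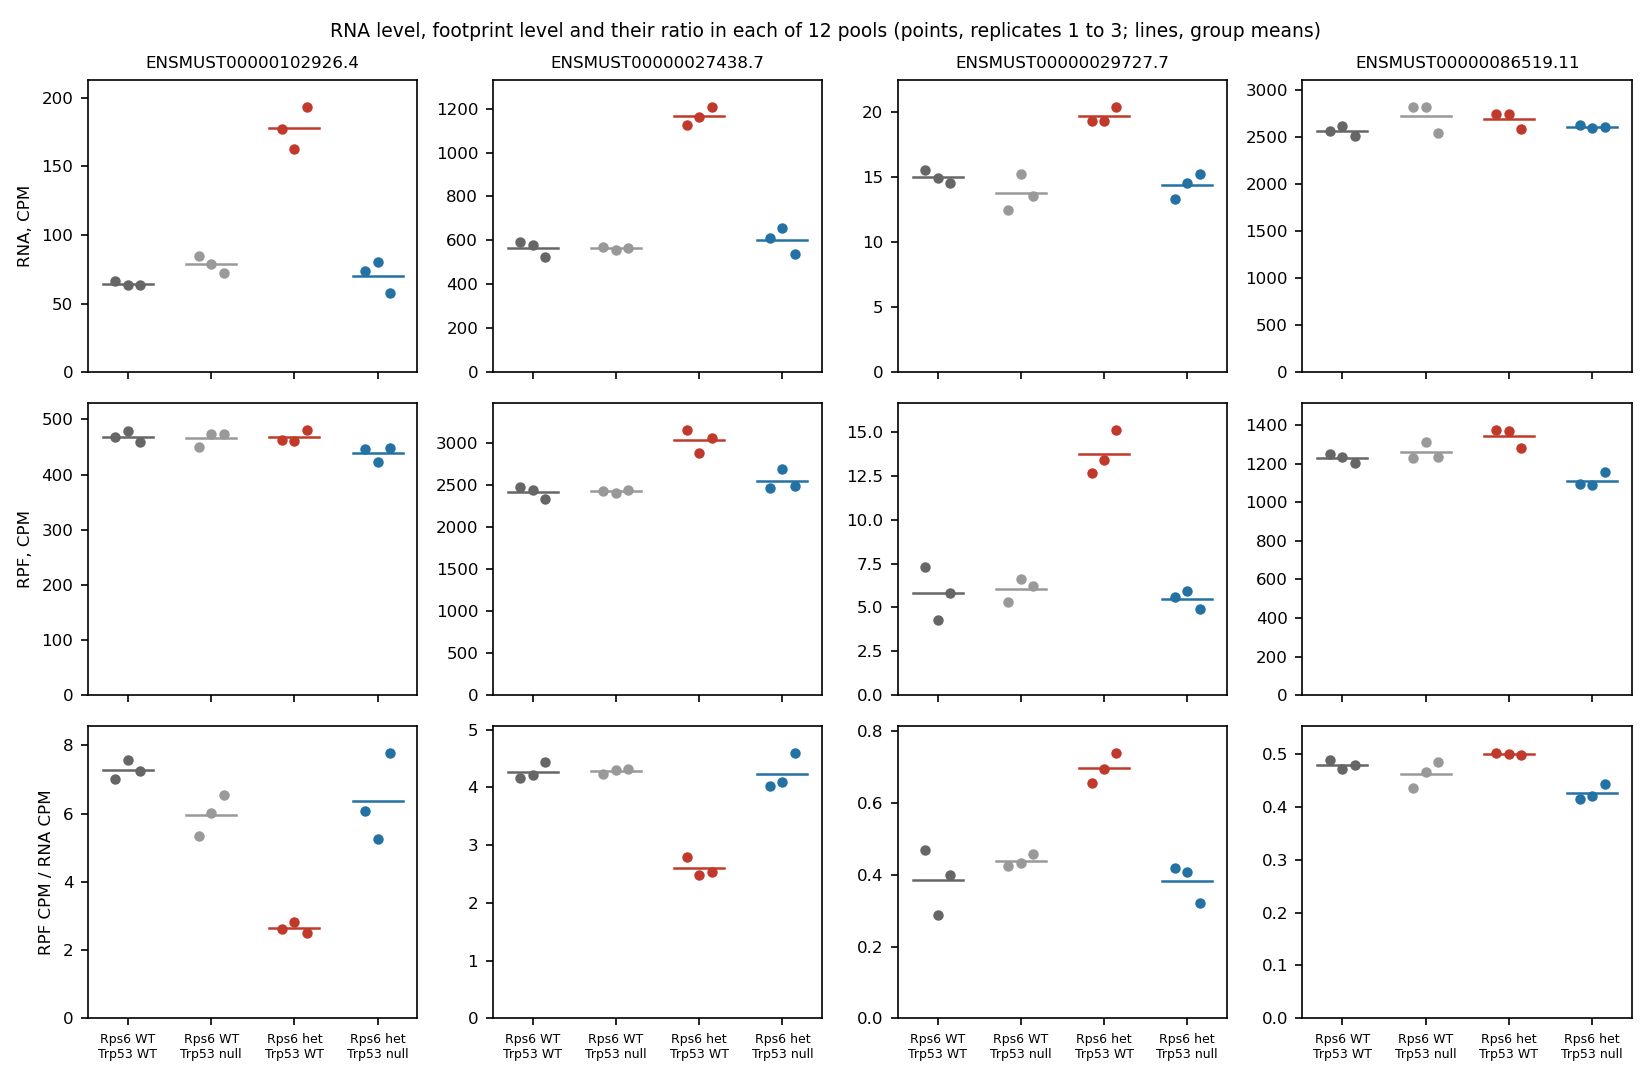
RNA level, RPF level and the ratio of RPF to RNA (rows, in CPM or as a ratio of CPM, axes from 0) of the 4 named transcripts (columns) in each of the 12 pools. Points are replicates 1 to 3 and lines are means of 3 pools. For ENSMUST00000102926.4 the ratio is 2.49 to 2.84 in Rps6 het, Trp53 WT and at least 5.26 in every pool of the other genotypes.

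Whether TE changed on Trp53 loss without Cre and the Rps6 deletion was asked in the Rps6 WT pools, which share no library with the Rps6 het pools. There, 0 of 14080 transcripts were called for TE by edgeR, with 1172 at an unadjusted p-value under 0.05, against 1243 in Rps6 het. The DESeq2 Wald test called 0 as well and limma called 2. With no filter on low counts 110 were called, 103 of them lower. Without replicate 2 or 3 of Rps6 het, Trp53 null, 3 and 16 were called, all lower. These pools belong to neither Rps6 WT group and enter through the shared spread, the scaling and the filter, which then kept 14234 and 14221 transcripts. Of the 72 transcripts with higher TE in Rps6 het, 26 had a positive TE change on Trp53 loss in Rps6 WT and 46 a negative one, beside 47.8% positive over all tested transcripts. Their changes in Rps6 WT had a median of −0.03 and lay between −0.35 and 0.16. Each of the 72 and each of the 5 had a smaller absolute change in Rps6 WT than in Rps6 het, where they had been chosen for their change.

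The difference between the Trp53 changes in Rps6 het and in Rps6 WT was tested in the same model. It was called for 44 of the 14080 transcripts (0.312%), 43 with a more positive TE change in Rps6 het (0.305%) and 1 with a more negative one (0.0071%). Of the 72 transcripts with higher TE, 33 had a called difference, and of the 5 with lower TE, 1 had. For the others a difference between the Rps6 genotypes was not shown. The median SE of this difference was 0.17 on the log2 scale, against 0.12 for the change in Rps6 het. By class, the difference was called for 20 of the 40 transcripts with lower RNA and no RPF call and for 7 of the 18 with higher RPF and no RNA call. The TE change in Rps6 het enters this difference, and these transcripts had been chosen by it. The shares of called differences among the 72, the 5 and the classes are therefore a description. The count of 44 varied widely with the pools in the fit, from 16 without replicate 3 of Rps6 het, Trp53 WT to 143 without replicate 2 of Rps6 het, Trp53 null. It was 18 and 113 without replicates 1 and 2 of Rps6 het, Trp53 WT, and 82 and 29 without replicates 1 and 3 of Rps6 het, Trp53 null. With the 2 libraries of a pool taken as independent, 10 were called, all more positive in Rps6 het.

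**Figure D4:**
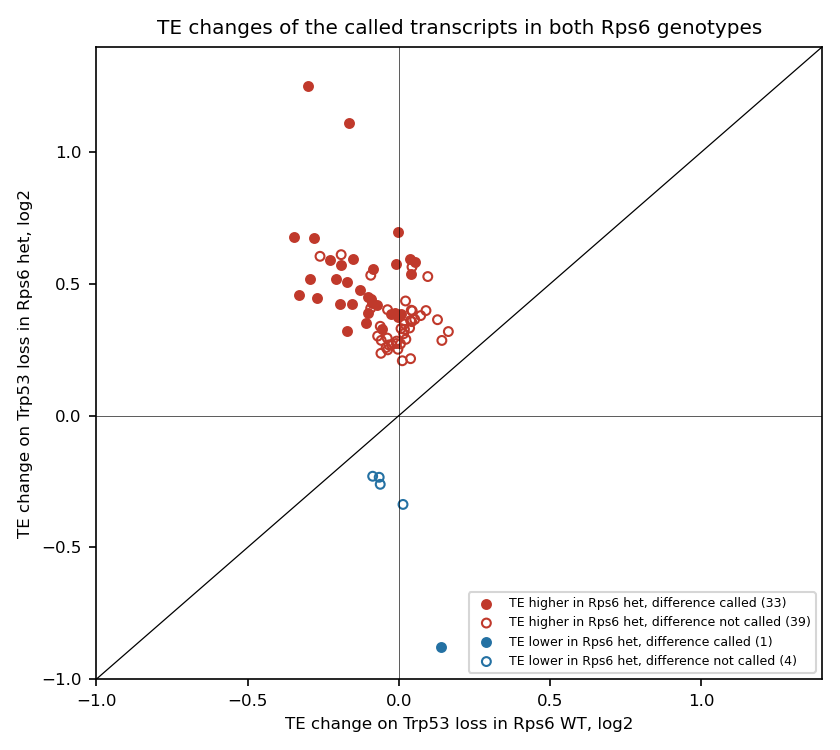
TE change on Trp53 loss in Rps6 het (vertical axis) against that in Rps6 WT (horizontal axis), both as log2 of Trp53 null over Trp53 WT, for the 77 transcripts called in Rps6 het. Filled points had a called difference between the Rps6 genotypes (33 red, 1 blue) and the diagonal marks equal changes. In Rps6 WT the red points lie between −0.35 and 0.16.

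Calls were concentrated among transcripts with many footprints. The tested transcripts were divided by mean RPF count into 4 bins of 3520. In the bin with the fewest footprints, with means of up to 26 RPF counts per Rps6 het library, the median SE of the TE change was 0.61 on the log2 scale and no transcript was called (0 by edgeR). In the bin with the most footprints, from a mean of 584.7 counts upward, it was 0.06. That bin held 62 of the 72 transcripts with higher TE and 3 of the 5 with lower TE, and the smallest called change there was 0.21. In the second bin 1 transcript was called, with a change of −0.88, and in the third 11, 10 higher and 1 lower, the smallest being 0.34 in size. A change of the median size seen here was thus not detectable for transcripts with few footprints. At the threshold, the last transcripts called had TE changes of 0.21 and 0.22 with adjusted p-values of 0.0433 and 0.048 by edgeR, and the first not called had 0.25 and 0.22 with 0.0512 and 0.0518.

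A smaller set held throughout. Of the 77 transcripts, 28 were called in each of the 6 fits that left out 1 Rps6 het pool, 27 with higher TE and 1 with lower. A total of 18 were called under all 15 alternative fits, and all 18 had higher TE. A missing adjusted p-value counted here as not called. ENSMUST00000029727.7, with lower TE, had no adjusted p-value in the DESeq2 Wald test and was called in the other 14 alternatives. Of the 18 called under all 15, 16 were lower in RNA and not called in RPF. Another 1 was lower in both and 1 was lower in RNA and higher in RPF.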

How the data were processed

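The authors deposited 1 table of raw read counts, with RPF counted over coding sequences, per the name of the table. The name gives RNA as total, which was read as counts over whole transcripts, and this reading could not be checked. The submitters' processing notes name Bowtie2, UMI-tools and the builds GRCm38 and mm10. The counting tool, annotation release and read filters are not given in the sources used here, nor is whether the deposited counts are of unique molecules.

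TE was tested with edgeR 4.0.16 in R 4.3.3 (glmQLFit, glmQLFTest) over all 24 libraries of 12 pools, with the pool as a block. The block was used because, per the labels' protocols, RNA and footprints were taken from the same embryo lysates. It assumes that the same pair of embryos was pooled in both libraries of a number. RPF and RNA were also fitted apart, each over 12 libraries. Transcripts were kept by filterByExpr (minimum count 10, minimum total 15), libraries were scaled by TMM within each kind, and p-values were adjusted over all transcripts tested. SE were derived from the F statistic. Per-pool TE is log2 RPF CPM less log2 RNA CPM, with a prior count of 2. RPF and RNA deviations correlated above 0.1 in all 12 pools (0.111 to 0.387). Alternatives were other scalings, filters and blocks, DESeq2 1.42.0, limma 3.58.1, fewer pools, and each Rps6 het pool left out.

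Across genotypes, pools with the same number come from other embryos. A level of 3 counts, the limit that a count of 0 allows, is 0.228 to 0.427 CPM in the Rps6 het, Trp53 WT footprint libraries, and covers counting error only. Nothing beyond the pooling describes the pools as separate litters, so p-values measure the spread between these pools. Members and lists were chosen with earlier results of these data known. Named transcripts were to be the 15 in each direction with the smallest p-value and pools that do not overlap. This gave 15 higher and 5 lower, of which 2 in each direction are printed because IDs are not paired with gene names. The 18 planned gene lists could not be matched.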

Additional observations from a re-analysis of the deposited data

Results flagged for a closer look

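The change in TE on Trp53 loss differed between Rps6 het and Rps6 WT limbs for 44 transcripts by a test of the difference itself in the same model, where Cre and the Rps6 deletion cannot be told apart (edgeR's quasi-likelihood test, adjusted p-value under 0.05). Among the named transcripts, the change in Rps6 het less that in Rps6 WT was 1.55 ± 0.13 (SE) on the log2 scale for ENSMUST00000102926.4 (edgeR adjusted p = 7.42e-08). It was 0.70 ± 0.08 (SE) for ENSMUST00000027438.7 (edgeR adjusted p = 1.28e-05) and −1.02 ± 0.22 (SE) for ENSMUST00000029727.7 (edgeR adjusted p = 0.0377). For ENSMUST00000086519.11 the difference of −0.17 ± 0.07 (SE) was not called (edgeR adjusted p = 0.426). The named transcripts had been chosen by their TE change in Rps6 het, which enters this difference.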

How the results depend on the processing

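For TE, library totals without scaling gave 123 calls, no filter on low counts 199, limma on the per-pool difference 51, the Rps6 het pools alone 38, and no replicate block for the pool 23. Leaving out 1 pool gave 34 to 107. The other alternatives stayed within 1.5 times the 77 calls: 74 with DESeq2 size factors, 88 with the filter passed in both kinds, 78 with the DESeq2 Wald test and 111 with a replicate block across genotypes. A similar count did not always mean the same transcripts. Of the 78 calls of the DESeq2 Wald test, 63 were among the 77, and of the 51 of limma, 43 were. With DESeq2 size factors 74 were shared, and with the filter in both kinds or the replicate block across genotypes all 77. The share of calls with higher TE was 84.3% to 98.1% over all 15 alternatives. For the difference between Rps6 genotypes, no filter gave 212 calls, limma 13, the replicate block across genotypes 72, no replicate block 10, and leaving out a pool 16 to 143. RNA calls fell to 1224 with the Rps6 het pools alone and were 1151 to 1854 without a pool, the lowest without replicate 1 of Rps6 het, Trp53 WT. RPF calls stayed within 1.5 times in every alternative, at 1258 to 1722 without a pool.

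Counting the classes again without each pool was added after the data were seen. It gave 22 to 61 transcripts with higher TE and lower RNA, 21 to 54 of these with no RPF call, and 5 to 32 with higher RPF and no RNA call. Same-numbered Rps6 het pools of the 2 Trp53 genotypes had TE deviations that correlated at −0.12 to 0.03, with 0 of 3 above 0.1, so the replicate number was not taken as a pairing. Per the column names, the 8 libraries of each replicate number carried 8 different barcodes, the same set in all 3 numbers. Whether a number marks libraries prepared or sequenced together is not given in the sources used here. The TE changes of ENSMUST00000102926.4 and ENSMUST00000027438.7 were called in all 15 alternatives, and that of ENSMUST00000029727.7 in the 14 that gave an adjusted p-value. That of ENSMUST00000086519.11 was called in 10 of 15, with adjusted p-values up to 0.194 (edgeR, no replicate block). No direction reversed. Counts moved both up and down without a pool, and the cause was not tested for any of these alternatives.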
